A study of Mus musculus with 6 samples.

Results

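The genes examined were the 8 subunits of the condensin complexes (Smc2, Smc4, Ncapd2, Ncapg, Ncaph, Ncapd3, Ncapg2 and Ncaph2) and Top2a, which encodes topoisomerase II alpha. They were picked by gene symbol from the deposited table, and all 9 were found among its 54532 genes. The table compares MC3T3-E1 cells, a mouse pre-osteoblast line that lays down mineralizing matrix in culture, in osteogenic medium alone (the control samples, 3) with cells in osteogenic medium plus metformin (3), a biguanide that lowers blood glucose. Both groups were induced for 3 days, and the treated cells received 0.2 mM metformin. Both groups also share the medium itself, which holds dexamethasone, ascorbic acid and β-glycerophosphate, so there was no arm without osteogenic induction. All samples come from 1 cell line. The study's methods call the samples of a group biological replicates. The sample labels do not say whether they were separate cultures, so part of the spread behind the p-values may be technical.

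Condensins are ring-shaped protein machines that fold chromatin into compact chromosomes for mitosis. The ATPases SMC2 and SMC4 form the core of both complexes. Condensin I adds NCAPD2, NCAPG and NCAPH, and condensin II adds the related NCAPD3, NCAPG2 and NCAPH2. Condensin II is nuclear through interphase and starts compaction in prophase, while condensin I reaches the chromosomes once the nuclear envelope breaks down. Topoisomerase II alpha passes one DNA duplex through another, which removes the entanglements between sister chromatids while condensin compacts them. Transcripts of most of these genes are abundant in dividing cells and scarce in resting cells, so in a pre-osteoblast culture they are usually read beside the exit from the cell cycle that goes with differentiation.

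Compared with osteogenic medium alone, 8 of the 9 genes rose with metformin and 0 fell. The test was limma-trend on log2(FPKM + 1), where FPKM is a read count scaled to the length of the gene and to the effective size of the library, with Benjamini-Hochberg adjustment over 12681 genes. In the same fit 13.2% of all tested genes were higher and 9.28% were lower (1670 and 1177 genes, or 2062 and 2433 after a correction for GC content). At an unadjusted p under 0.05, and with voom on the recovered reads, the number of the 9 genes that were lower was also 0. Of all tested genes, 19.3% were higher and 16.5% lower at an unadjusted p under 0.05, and 14.0% were higher and 9.75% lower by voom. The rises were 2.24-fold to 6.999-fold in mean FPKM, least for Smc4 and most for Top2a. Ncaph2, the kleisin of condensin II, was the exception, with 1.15 times the control level and an adjusted p of 0.152. For all 9 genes the 3 samples with metformin lay above the 3 controls, a pattern found in 23.6% of the tested genes. The median log2 fold change was 1.68 for the 9 genes and 0.0053 for all genes tested. In a bulk culture, a larger share of cells in the division cycle and more transcript per cell cannot be told apart.

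Between 98 and 7076 reads stood behind each of these values, out of 18399861 to 22111790 recovered reads per sample. Control replicate 1 stood apart: its Pearson correlation with the other controls was 0.952 to 0.960 across genes, against 0.988 between those controls and at least 0.992 between the samples with metformin. Its deviation from the other controls had a Spearman correlation of -0.668 with transcript GC content across genes, which are not independent replicates. It was also the highest control for 8 of the 9 genes, at 1.32 to 2.24 times the mean of the other controls for the genes that rose. After the correction for GC content it was the highest control for all 9. Without it 8 of the 9 genes were again higher, against 23.4% of all tested genes. All 8 osteoblast markers were present in every sample, with 2 higher and 2 lower with metformin. The collagen genes Col1a1 (927 to 2576 FPKM, log2 fold change 0.93) and Col1a2 (0.57) rose, and the matrix glycoprotein genes Spp1 (-1.50) and Ibsp (-1.60) fell. Runx2 (25.8 to 34.2 FPKM), Sp7 (36.8 to 54.0), Alpl (2.44 to 3.84) and Bglap (2.22 to 12.3) did not pass the test. For Bglap control replicate 1 had 2.22 FPKM, against 12.3 and 9.55 in the other controls. Without that replicate limma-trend also called Sp7 higher (0.27, adjusted p = 0.0230) and Bglap lower (-0.91, adjusted p = 0.00314). The osteoblast markers were then 3 higher and 3 lower, against 2969 and 2590 of all 12681 tested genes. The part of these markers in the result was not tested. Of the 16 markers of macrophages, endothelium, adipocytes and epithelium, Epcam, Krt8, Krt18 and Cfd were at 0 in all samples. The summed FPKM of the macrophage list was 1.97 to 2.18 in the controls and 1.12 to 1.35 with metformin, nearly all of it Cd68, while those of the endothelial and epithelial lists were at most 0.121 and 0.0313. The adipocyte list summed to 1.66 to 3.08 in the controls and 1.88 to 2.31 with metformin, most of it Fabp4.

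**Figure D1:**
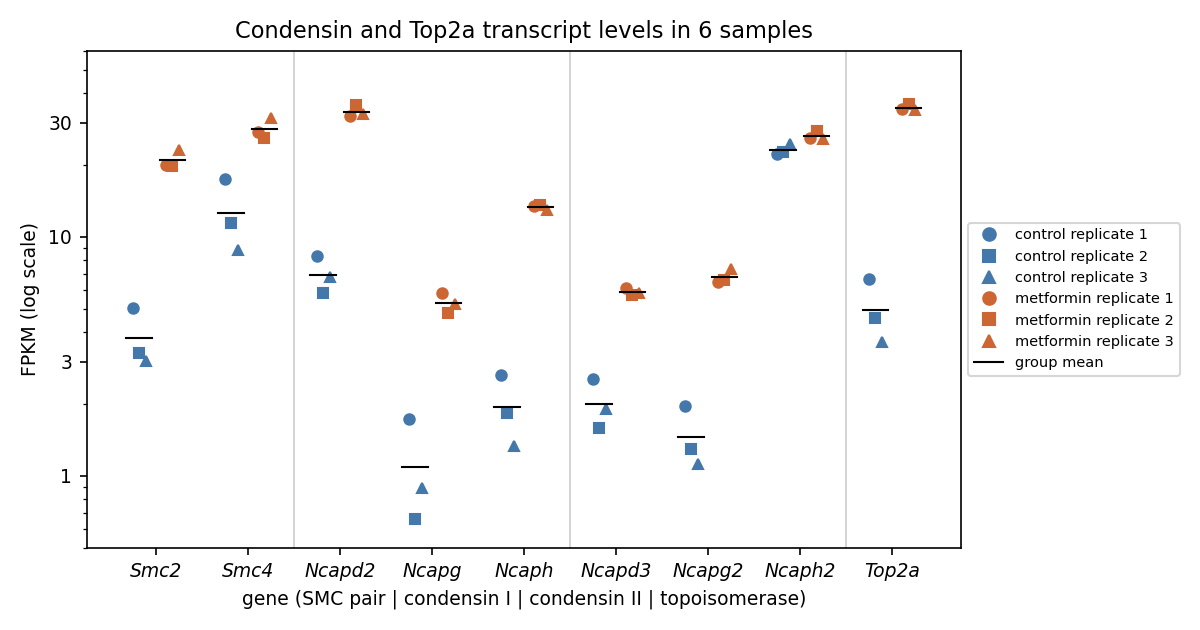
FPKM of the 9 genes in each of the 6 samples on a log axis, with 1 symbol per replicate and a bar at the group mean. The metformin samples lie above the controls for every gene, by little for Ncaph2 (22.1 to 24.5 against 25.8 to 27.7 FPKM), and control replicate 1 is the highest control for all genes but Ncaph2.

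Smc2 and Smc4, the ATPase pair of both complexes, both rose. Smc2 (GRCm38 chromosome 4, 52439243 to 52488260, plus strand) had 5.04, 3.27 and 3.02 FPKM in control replicates 1 to 3 and 19.98, 19.8 and 23.1 with metformin. The lowest metformin sample was 3.94 times the highest control. The log2 fold change was 2.22 ± 0.17 (standard error) for Smc2 (adjusted p = 0.000274 by limma-trend). Smc4 (chromosome 3, 69004738 to 69034623, plus strand) started from a higher level, with 17.5, 11.4 and 8.80 FPKM in the controls and 27.3, 26.0 and 31.4 with metformin. The groups did not overlap, but the control samples were spread over a wide range. Smc4 had a log2 fold change of 1.15, with a standard error of 0.23 (adjusted p = 0.0131). This call was lost without control replicate 2 (adjusted p = 0.0529), without metformin replicate 1 (0.0518) and without metformin replicate 3 (0.0596), and the log2 fold change was then 1.11, 1.17 and 1.08.

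All 3 subunits particular to condensin I rose. Ncapd2, which encodes a HEAT-repeat subunit, is on chromosome 6 (125168007 to 125191701, minus strand). It had 8.28, 5.80 and 6.76 FPKM in the controls and 32.1, 35.5 and 32.5 with metformin. The groups were far apart, and the log2 fold change was 2.12 with a standard error of 0.13 (adjusted p = 0.000142). The kleisin gene Ncaph, whose protein bridges the SMC heads, lies on chromosome 2 (127103809 to 127133954, minus strand). Its values were 2.64, 1.83 and 1.33 FPKM in the controls and 13.4, 13.6 and 12.9 with metformin. The samples with metformin were nearly alike and the lowest was 4.89 times the highest control. Ncaph had a log2 fold change of 2.31, with a standard error of 0.16 (adjusted p = 0.000217). The other HEAT-repeat subunit gene, Ncapg (chromosome 5, 45669919 to 45700546, plus strand), was the lowest of the 9 genes, with 1.73, 0.661 and 0.886 FPKM in the controls and 5.83, 4.80 and 5.25 with metformin. Control replicate 1 was 2.24 times the mean of the other controls, the widest such gap among the 9 genes. Ncapg had a log2 fold change of 1.62, with a standard error of 0.19 (adjusted p = 0.00164). The pseudocount shrinks changes at such levels, and voom on the recovered reads gave 2.41.

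Of the condensin II subunits, Ncapd3 and Ncapg2 rose and Ncaph2 did not pass the test. Ncapd3, the HEAT-repeat counterpart of Ncapd2, is on chromosome 9 (27030175 to 27095315, plus strand). Its level was 2.53, 1.59 and 1.90 FPKM in the controls and 6.12, 5.71 and 5.82 with metformin. The groups did not overlap, and the change was 1.21 ± 0.13 on the log2 scale (standard error, adjusted p = 0.000996). Ncapg2, the counterpart of Ncapg, is on chromosome 12 (116405402 to 116463731, plus strand). It went from 1.96, 1.30 and 1.12 FPKM to 6.44, 6.62 and 7.32, also without overlap. Ncapg2 had a log2 fold change of 1.68, with a standard error of 0.14 (adjusted p = 0.000397). Ncaph2, the condensin II kleisin, is on chromosome 15 (89355719 to 89372826, plus strand). It had 22.1, 22.6 and 24.5 FPKM in the controls and 25.9, 27.7 and 25.8 with metformin. Here the groups were separate by a narrow margin, since the lowest metformin sample was 1.05 times the highest control. Its log2 fold change was 0.19, with a 95% interval of -0.0075 to 0.39 and an adjusted p of 0.152. Once each library had been corrected for transcript GC content, the groups overlapped for Ncaph2, with control replicate 1 at 4.77 on the log2 scale and metformin replicate 1 at 4.71, and they stayed apart for the other 8 genes.

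Top2a had the largest log2 fold change of the 9 genes and rank 10 among all tested genes by log2 fold change. It is on chromosome 11 (98992943 to 99024189, minus strand). The controls had 6.67, 4.59 and 3.63 FPKM, and the samples with metformin had 34.2, 36.0 and 33.9. Even the lowest metformin sample was 5.09 times the highest control. The log2 fold change was 2.61 (standard error 0.18, 95% interval 2.19 to 3.04, adjusted p = 0.000210).

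**Figure D2:**
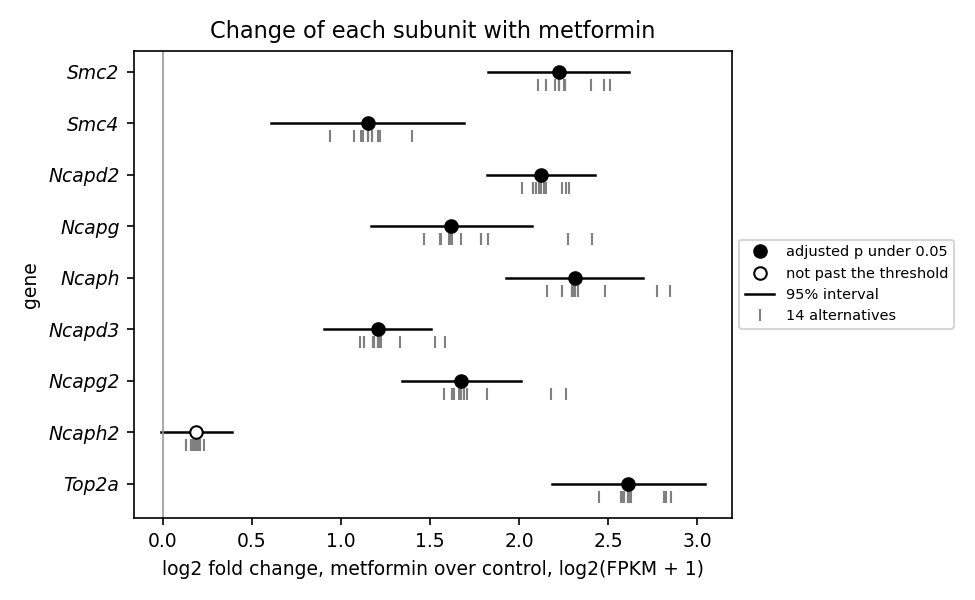
Log2 fold change of each gene with metformin over control on the log2(FPKM + 1) scale, with 95% intervals from limma-trend and ticks for 14 alternative analyses. Of the 9 intervals only that of Ncaph2 reaches 0 (-0.0075 to 0.39), and Top2a lies farthest to the right at 2.61.

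The order of the levels changed between the groups. In the controls Ncaph2 was the most abundant (23.1 ± 1.24 FPKM, SD, n = 3), ahead of Smc4 (12.6 ± 4.47) and Ncapd2 (6.95 ± 1.25). The ranges of Ncapd2, Top2a (4.96 ± 1.55) and Smc2 (3.78 ± 1.10) overlapped from each to the next. The ranges of Ncapd3, Ncaph, Ncapg2 and Ncapg likewise overlapped from each to the next, with means from 2.01 down to 1.09. With metformin Top2a (34.7 ± 1.14 FPKM, SD, n = 3) and Ncapd2 (33.4 ± 1.84) were highest and their ranges overlapped. Next came Smc4 (28.2 ± 2.79) and Ncaph2 (26.5 ± 1.10), whose ranges also overlapped. Smc2 (20.97 ± 1.83), Ncaph (13.3 ± 0.361) and Ncapg2 (6.79 ± 0.464) were apart from their neighbours in this order, and the ranges of Ncapd3 (5.88 ± 0.215) and Ncapg (5.29 ± 0.515) overlapped.

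The condensin I and condensin II counterparts were compared as the ratio of their FPKM within each sample, which does not depend on library scaling. The ratios were not corrected for GC content, with which the deviation of control replicate 1 was correlated across genes. Transcript GC content was 48.3% for Ncaph and 55.7% for Ncaph2, and 54.0% for Ncapd2 and 46.8% for Ncapd3. It was 34.8% for Ncapg and 44.3% for Ncapg2. Ncaph/Ncaph2 was 0.119, 0.0806 and 0.0545 in the controls and 0.518, 0.491 and 0.502 with metformin. Every metformin sample was above every control, and the mean log2 ratio rose by 2.64. The Ncapd2/Ncapd3 ratio was 3.27, 3.65 and 3.57 in the controls and 5.25, 6.21 and 5.59 with metformin, again without overlap, a change of 0.70 in log2. For Ncapg/Ncapg2 the groups overlapped, with 0.881, 0.511 and 0.790 in the controls and 0.905, 0.725 and 0.718 with metformin. The change in log2 was 0.14, and it turned to -0.10 without control replicate 2 and to -0.059 with 1 added to each FPKM. In an exact two-sided permutation test over the 6 samples, p was 0.10, 0.10 and 0.80 in this order, and 0.15, 0.15 and 0.80 after Benjamini-Hochberg adjustment over the 3 pairs. With 3 samples against 3, 0.10 is the smallest p this test allows. A further pair of ratios was computed after the values had been seen and was not tested. Smc2/Smc4 was 0.286 to 0.343 in the controls and 0.732 to 0.763 with metformin. Top2a/Top2b was 0.455 to 0.610 in the controls and 3.43 to 3.77 with metformin. Top2b encodes topoisomerase II beta, the isoform that resting cells also use, and its level was 9.15 ± 2.44 FPKM in the controls and 9.57 ± 0.316 with metformin (SD, n = 3, log2 fold change 0.08, adjusted p = 0.757). Without control replicate 1 its log2 fold change was 0.27 (adjusted p = 0.0126).

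**Figure D3:**
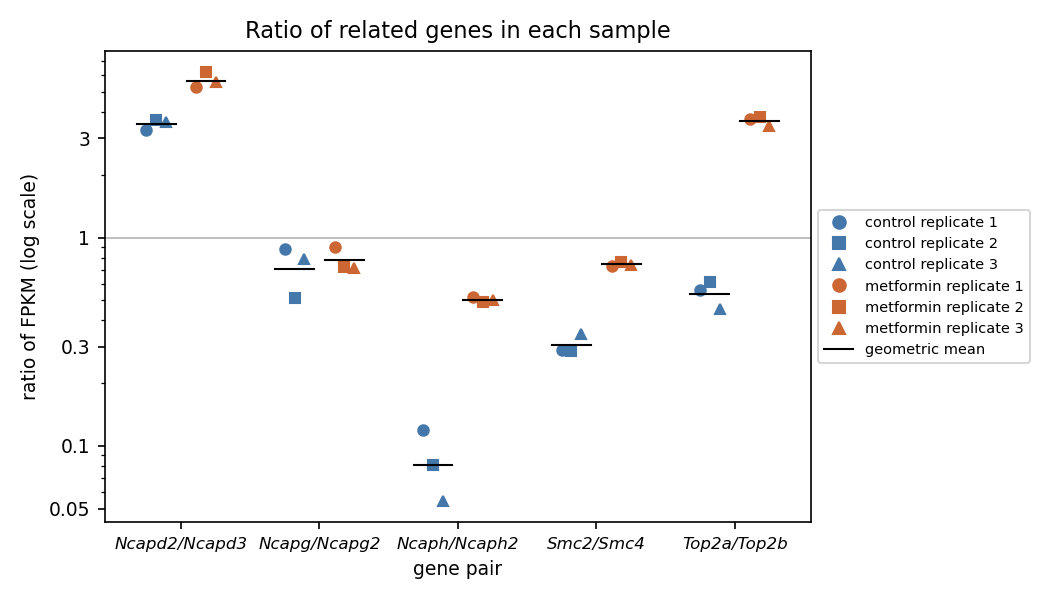
Ratio of FPKM of 5 gene pairs in each sample on a log axis, with bars at the geometric mean of each group and a line at equal levels. Ncaph/Ncaph2 goes from 0.0545 to 0.119 in the controls to 0.491 to 0.518 with metformin, while the groups overlap for Ncapg/Ncapg2.

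Promoter sequences are shown because most of these genes moved together while Ncaph2 did not pass the test. Of the 9 genes, 8 matched an entry in the RefSeq promoter table (GRCm38.p6), and Smc4 did not. The letters TTTGAA, the core of the cell cycle genes homology region that the MuvB complex binds in many mitotic genes, were searched on both strands. So were the variant TTTAAA, the CCAAT box bound by NF-Y and the E2F motifs TTTGGCGC and TTTCCCGC. The RefSeq start lies inside the gene as the deposited table places it for Ncapg (by 6 bases), Ncapg2 (34) and Ncapd2 (115). The 100 bases before the RefSeq start, less any inside the gene, are printed 5′ to 3′ for Top2a and for the counterpart pairs Ncapg and Ncapg2 and Ncaph and Ncaph2, in lower case with matches on either strand in capitals:
Top2a (chr11:99024190-99024289, minus strand): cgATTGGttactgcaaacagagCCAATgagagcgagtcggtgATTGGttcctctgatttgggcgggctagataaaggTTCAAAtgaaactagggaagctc
Ncapg (chr5:45669825-45669918, plus strand): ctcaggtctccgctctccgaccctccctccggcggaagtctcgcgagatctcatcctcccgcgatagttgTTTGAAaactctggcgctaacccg
Ncapg2 (chr12:116405336-116405401, plus strand): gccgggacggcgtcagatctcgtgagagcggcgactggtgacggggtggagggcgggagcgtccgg
Ncaph (chr2:127133955-127134054, minus strand): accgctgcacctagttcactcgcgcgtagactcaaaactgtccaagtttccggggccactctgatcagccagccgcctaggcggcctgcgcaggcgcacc
Ncaph2 (chr15:89355619-89355718, plus strand): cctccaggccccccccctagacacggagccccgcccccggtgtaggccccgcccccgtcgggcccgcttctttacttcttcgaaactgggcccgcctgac

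In the 100 bases before the RefSeq start TTTGAA or its reverse complement TTCAAA was found for 3 of the 8 genes, Top2a, Ncapg and Ncapg2, and in 5.76% of the 32851 promoters of the table. The matches begin 23, 30 and 18 bases before that start, and the one of Ncapg2 lies inside the gene as the table places it, so it is not printed. The CCAAT box was found for Top2a, with 3 matches in the printed stretch, and for Ncapd2, against 18.9% of promoters, and TTTGGCGC was found for Ncapd2 alone, against 0.186%. Both of these matches of Ncapd2 lie inside its gene. Ncaph rose 6.89-fold in mean FPKM and Ncaph2 1.15-fold, and neither had any of these letters in 100 or in 250 bases. A gene was counted if any of its RefSeq starts had a match, while the percentages count promoters. Over 250 bases TTTGAA was present for 6 of the 8 genes (16.0% of promoters), with Smc2, Ncapd2 and Ncapd3 added. For Smc2 and Ncapd2 the match lies before the gene. The CCAAT box was then found for 4 genes (33.9%), TTTAAA for Ncapd3 (12.1%) and TTTCCCGC for Ncapg2 (0.895%). Both TTTGAA and TTTAAA of Ncapd3 are in the window of a start 30241 bases inside the gene, and neither is in that of its outermost start. TTTAAA and TTTGAA do not overlap each other in any of these windows. A match is a stretch of letters and not a measured binding site, and no match says only that these letters are not in the window.

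Other genes that act on chromosome structure were counted from lists of known complexes. Among 17 tested genes of the cohesin ring, its loader and its regulators, 6 rose and 0 fell, with a median log2 fold change of 0.18. At an unadjusted p under 0.05, 6 were higher and 1 lower, and voom on the recovered reads gave the same counts. Without control replicate 1 they were 9 and 1, against 2969 and 2590 of all 12681 tested genes. After the GC correction they were 6 and 2, against 2062 and 2433. The largest rises were those of Cdca5 (sororin, which keeps cohesin on sister chromatids, log2 fold change 2.02), Sgo1 (shugoshin, which guards centromeric cohesion, 1.99) and Espl1 (separase, the protease that opens the ring, 1.90). The ring subunits Smc1a (0.71, adjusted p = 0.000948) and Rad21 (0.65, adjusted p = 0.00230), named after their values were seen, rose less. On the same list Smc3 (0.20, adjusted p = 0.219), Stag1 (-0.061, adjusted p = 0.803) and Stag2 (-0.30, adjusted p = 0.364) did not pass the limma-trend test. Without control replicate 1, Smc3 was called (0.29, adjusted p = 0.0118) and Stag1 and Stag2 were not. For the SMC5/6 complex, a repair relative of condensin, 0 of 6 tested genes were called in either direction by limma-trend, 0 at an unadjusted p under 0.05 and 0 by voom. Its member farthest from 0 was Nsmce4a, at -0.28 (adjusted p = 0.273). On the list of other DNA topoisomerases and their partners 1 of 8 rose and 0 fell, and at an unadjusted p under 0.05 or by voom the numbers were again 1 and 0. A share of 1 in 8 is near that of all tested genes. The gene that rose was Topbp1 (1.31, adjusted p = 0.000895), which encodes a scaffold of DNA damage signalling and replication and not a topoisomerase. Without control replicate 1, Top2b was called as well.

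The list of mitotic chromosome partners, which holds kinases, cyclins, passenger proteins and chromosome scaffold genes, held the highest median of these lists. Of its 17 tested genes 13 rose and 0 fell, both by limma-trend and by voom. At an unadjusted p under 0.05 by limma-trend, 14 were higher and 0 lower. The median log2 fold change was 2.10. Aurkb, whose kinase phosphorylates chromatin and helps load condensin I, went from 2.82 ± 0.452 to 21.6 ± 0.388 FPKM (SD, n = 3, log2 fold change 2.57, adjusted p = 6.43e-05). Plk1, a mitotic kinase that also acts on condensin II, rose by 2.56, and Ccna2, the S and G2 phase cyclin, by 2.49. The 4 genes that did not pass, Akap8, Anp32e, Phf8 and Ppp2r1a, had log2 fold changes from -0.18 to 0.39. Among 15 genes of the MuvB, NF-Y and E2F regulators 7 rose and 0 fell, with a median of 0.31. At an unadjusted p under 0.05 there were 8 and 1, and by voom 8 and 0. Without control replicate 1 there were 9 and 1, against 2969 and 2590 of all 12681 tested genes. The lower gene was then Lin37 (-0.56, adjusted p = 0.00709 by limma-trend). After the GC correction there were 7 and 1, against 2062 and 2433. Foxm1 (2.58), a transcription factor of G2 and M phase genes, Mybl2 (2.15), its partner on MuvB, and Rbl1 (1.48), a pocket protein of the E2F system, rose most.

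**Figure D4:**
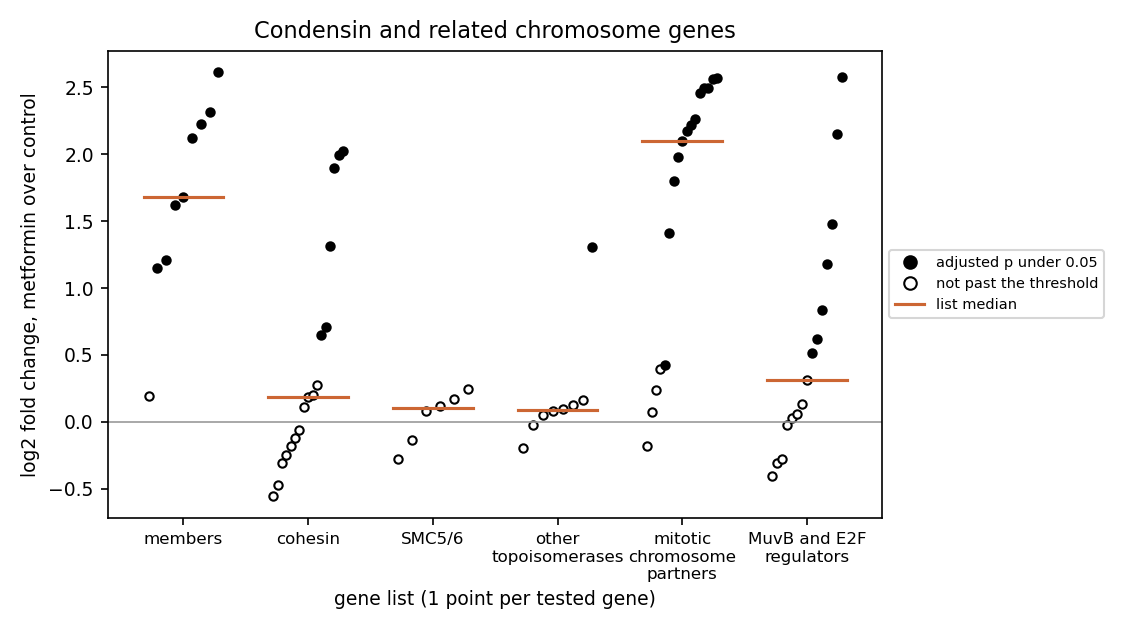
Log2 fold change of each tested gene, metformin over control, in the 9 genes and in 5 related lists, with filled points for an adjusted p under 0.05 and a bar at the list median. The medians are 1.68 for the condensin genes and Top2a and 2.10 for the mitotic chromosome partners, against 0.18 for cohesin and 0.10 for SMC5/6.

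Over the 6 samples, the genes outside the 9 whose log2 levels followed Top2a most closely were Pclaf, Mcm4, Col8a1, Cenpa and Mcm6, with Pearson correlations of 0.99965 to 0.99985. Pclaf encodes a PCNA-associated factor, Mcm4 and Mcm6 subunits of the replicative helicase, Cenpa the centromeric histone and Col8a1 a collagen chain. For the mean of the standardized levels of the 9 genes they were Ccnf, Cdc23, Gpc6, Prc1 and Kif20a, with correlations of 0.99934 to 0.99984. Ccnf, Prc1 and Kif20a serve cell division, Cdc23 belongs to the anaphase-promoting complex and Gpc6 is a heparan sulfate proteoglycan. Their changes differed in size, from a log2 fold change of 0.28 for Cdc23 to 2.55 for Kif20a. These correlations are a description: the 6 points share the split between the groups and the spread of the same 3 control libraries.

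Reads of some of these genes may be shared with others, since it is not stated whether counting used strand. Ncapg, with a listed length of 7066 bases, shares 944 exonic bases with Lcorl (18855 bases) on the opposite strand. Lcorl had 1.21 ± 0.424 FPKM in the controls and 1.12 ± 0.116 with metformin (SD, n = 3). That is close to the control level of Ncapg, but only the 944 shared bases could hold reads of both genes. The number of such reads was not tested. Ncaph2 shares 535 exonic bases with Tymp and 829 with Sco2, both on the opposite strand, and a stretch of 408 bases in Gm7535 is 97.5% identical to it. Sco2 was at 0 in all samples, Tymp reached at most 0.889 FPKM and Gm7535 at most 1.91. Scarna10 and Gm28967 overlap exons of Ncapd2, and the small RNA gene Gm23451 lies in an exon of Top2a, all at 0 FPKM. Gm26394, a small RNA gene on the opposite strand within Top2a that shares 0 exonic bases with it, had a mean of 0.138 FPKM in the controls and 0.840 with metformin. For Smc2, Smc4, Ncaph, Ncapd3, Ncapg2 and Top2a no other gene had transcript sequence of at least 95% identity over 200 bases.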

How the data were processed

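RNA of 3 control and 3 metformin samples was sequenced from TruSeq libraries. The authors deposited 1 table without a unit, whose values were identified as FPKM: times the listed gene length, 100% of those above 0 come to whole numbers of a sample-specific unit (within 0.01 read), so the reads could be recovered. The submitters' processing notes name Bowtie 0.12.2 and the builds mm8 and mm9, but 53499 of 54532 gene identifiers have the coordinates of GENCODE M21 (GRCm38), and coordinates are given in that build. The authors tested with DESeq2. The counting tool is not given in the sources used here.

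Because the table holds FPKM, limma 3.58.1 (R 4.3.3, trend in the empirical Bayes step, two-sided) was fitted to log2(FPKM + 1) over 12681 genes with a mean of at least 0.5 FPKM, with Benjamini-Hochberg adjustment and a threshold of 0.05. Fold changes on this scale understate changes of low genes. All 9 genes passed the filter. On simulated reads for the 12681 genes, 198 of 200 changed genes and 17 unchanged genes were called. Ratios were tested with scipy 1.17.1, similar transcripts were found with BLAST+ 2.17.0 and figures were drawn with matplotlib 3.10.9.

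The genes and lists were chosen with earlier results of these data known. Named from other lists are up to 3 genes with the largest rise or fall among those called, or the gene farthest from 0 where none was called, and the 5 genes most correlated with Top2a or with the mean of the 9. The fit was repeated without the filter, with at least 10 reads in every sample instead, after scaling to total reads, with 0.1 as pseudocount, with voom on the recovered reads, with a GC correction (a spline with 5 degrees of freedom on the GC content of the longest transcript, known for 99.9% of tested genes), with the replicate number as a block, with that block and the GC correction, and leaving out each sample in turn.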

Additional observations from a re-analysis of the deposited data

How the results depend on the processing

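Of 112 values for the 8 genes that rose (14 alternatives each), 109 stayed past the threshold, 0 changed direction, and 3, all of Smc4, lost the call, each without 1 sample. The number of the 9 genes called higher was 8 under 11 alternatives and 7 in those 3. Ncaph2 stayed under the threshold in all 14, with log2 fold changes of 0.13 to 0.23 and adjusted p-values of 0.0814 to 0.418. Across them Top2a had log2 fold changes of 2.45 to 2.86, Ncapg of 1.47 to 2.41 and Smc4 of 0.94 to 1.40. With the replicate number as a block 8 of the 9 genes were again higher (adjusted p for Smc4 0.0252). Same-numbered samples did not deviate together from their group means (correlations -0.0533, 0.00027 and -0.0549). These correlations used values without the GC correction, where control replicate 1 stood apart. They therefore do not settle whether the numbers pair the samples. Over all tested genes the 1177 lower genes became 698 with the replicate block, 2433 with the GC correction and 1888 with the replicate block with GC correction, against 1670 higher genes that became 1161, 2062 and 1703. Leaving out 1 sample gave 938 to 2969 higher and 495 to 2590 lower genes, most without control replicate 1 and fewest without metformin replicate 1. Both counts also fell by over 1.5 times without metformin replicate 2 (943 and 518) or 3 (985 and 533), and the lower genes without control replicate 2 (741). The GC correction shifted all log2 fold changes by a median of -0.0542. The cause of these differences was not tested. The change of the Ncapg/Ncapg2 log2 ratio turned from 0.14 to -0.059 with a pseudocount of 1 and ranged from -0.10 to 0.29 when 1 sample was left out. Genes with TTTGAA were 6 within 250 bases of the RefSeq start and 3 within 100.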
